A study of Mus musculus with 7 samples.

Results

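Long intergenic noncoding RNAs are transcripts that lie between protein-coding genes and do not encode a protein. Many of them were first placed on the mouse genome as intervals of chromatin with the marks of active transcription, before a transcript was cloned or named, and expression arrays of that time carried probes tiled over both strands of such intervals. As a class they are known for low levels and for being restricted to few tissues, and some act on chromatin, on neighbouring genes or as scaffolds of nuclear bodies. The results below describe the array features named by a genomic interval instead of a gene. A feature is 1 probe sequence with its spots averaged, and a member is a non-control feature whose systematic name starts with a chromosome interval. There were 16194 such features among 55681, or 29.1%.

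The arrays compared cells sorted from mouse dorsal skin at postnatal day 15, gated as dermal sheath cells by YFP, with CD34, alkaline phosphatase and integrin α8 all negative. The dermal sheath is the mesenchymal layer around the hair follicle. Both groups were sorted for YFP. The cΔex3 group carried activated β-catenin: loss of the exon that holds the sites marking β-catenin for breakdown stabilises the protein, which carries Wnt signals to the nucleus. The Cre driver of the allele and of the reporter, and the genotype of the control animals beyond the label, are not given in the sources used here. The control group had 3 arrays from 4 mice, with 2 mice pooled on replicate 3. The cΔex3 group had 4 arrays from 6 mice, with 2 mice pooled on each of replicates 2 and 3. Each array started from 10 ng of RNA. Levels are the log2 processed signal minus the log2 75th percentile of the same array, so that 0 is that percentile, and a difference is the mean of the cΔex3 arrays minus the mean of the control arrays.

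The labelled cell type was checked first, since it touches every result. Summed over 15 hepatocyte genes found, such as those for albumin and apolipoproteins, the linear level was 6463 to 8244 times the 75th percentile on the control arrays and 225 to 381 on the cΔex3 arrays, and 15 of 15 were lower in cΔex3, 13 of them under all 7 scalings described below. Summed over 12 adipocyte genes it was 21.9 to 121 on the control arrays and 1114 to 2502 on the cΔex3 arrays, and 12 of 12 were higher. The smooth muscle and matrix genes of the dermal sheath list summed to 26.9 to 39.3 and 112 to 246, with Col11a1 not well above background on any control array. Of these 8 genes 7 were higher in cΔex3, 6 of them under all 7 scalings. Dermal fibroblast genes were higher for 8 of 8, keratinocyte genes for 1 of 6, and of 6 leukocyte genes 1 was higher and 2 lower, the latter under some scalings only. Replicate 4 of cΔex3 stood apart in spermatid genes, at 162 against 8.8 to 17.7 on the other cΔex3 arrays and 0.786 to 1.09 on the control arrays, and in epididymis genes, at 609 against 0.923 to 85.4 and 3.4 to 5.0. Tnp2 and Odf1 of the spermatid list, and Crisp1, Lcn5, Lcn9 and Defb21 of the epididymis list, were not well above background on any control array. On the control arrays the hepatocyte sum was far above that of the dermal sheath list, and on the cΔex3 arrays the adipocyte sum was. These values go against the labelled cell type in both groups, though the lists differ in length. The genes of the gate are in none of the lists, so the gate itself was not checked. The groups are named below as the labels give them. Their markers of several cell types differ, and the part of that difference in the results below was not tested. Fewer cells of a type and less RNA per cell cannot be told apart in these samples.

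The 16194 features named 3543 intervals. The strand letter in the name was F for 8171 features and R for 8010, and 13 features of 3 intervals had none. The files do not state how the letter relates to the genome's strands. Both letters occurred for 1067 intervals and 1 letter for 2473. An interval had a median of 3 features and at most 20, and 428 had 1. On build mm9, the build of the array design per the file headers, the intervals were 62 to 7128487 bases long, with a median of 7304. With the 1 interval of over 1 Mb left out, they merged into 2225 loci without overlap. The intervals covered 20 chromosomes, and none lay on Y. Features of 1 interval can read the same transcript and overlapping intervals can share bases, so that features are not independent. The probe sequences, and the genes or exons around the intervals on this build, were not analysed here.

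Fewer interval features than other features were detected. A feature was called detected where the scanner software marked it as well above background. On the control arrays 58.6%, 57.8% and 55.7% of interval features were detected. On the cΔex3 arrays the shares were 72.4%, 52.7%, 57.1% and 73.1%. The control shares lie within the range of the cΔex3 shares, in which replicates 1 and 4 are high. The mean was 57.4% ± 1.48 (SD, n = 3) in control and 63.8% ± 10.5 (SD, n = 4) in cΔex3, a difference of 6.43 percentage points (two-sided exact permutation test, p = 0.514, where 0.0571 is the smallest that 3 against 4 arrays can give). Without cΔex3 replicate 4 the difference was 3.34 points, and without replicate 1 it was 3.56. The other features were detected at 74.3% ± 1.23 (SD, n = 3) and 80.0% ± 5.95 (SD, n = 4). The share of interval features minus that of the others was -16.9 points in control and -16.2 in cΔex3, and this change did not pass the exact permutation test (p = 0.914).

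**Figure D1:**
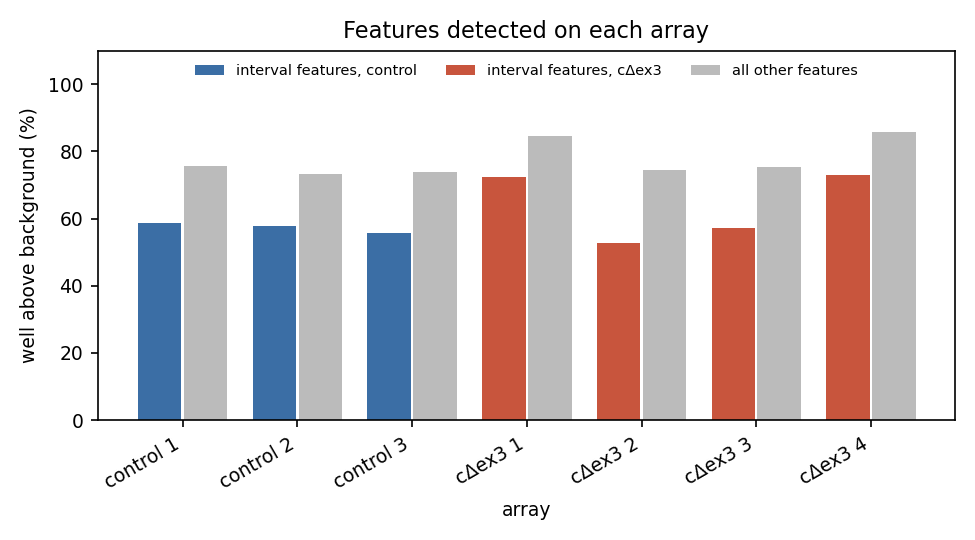
Share of features well above background, in percent, on each of the 7 arrays, for the 16194 interval features (coloured bars) and all other features (grey bars). On every array the interval features are below the others, and cΔex3 replicates 1 and 4 have the highest shares, 72.4% and 73.1%.

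Detection depends on each array's own background. With a common signal floor for all arrays, the share of interval features above it was 50.1% ± 1.63 (SD, n = 3) in control and 60.7% ± 5.78 (SD, n = 4) in cΔex3, with no overlap between the groups (exact permutation test, p = 0.0571, the smallest possible). The 75th percentile of signal itself was higher on the cΔex3 arrays by 1.09 on the log2 scale (two-sided exact permutation test, p = 0.0571), and its part in the difference above the floor was not tested.

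Across the 7 arrays, 7377 interval features (45.6%) were detected on every array, against 66.4% of the others. On no array at all were 3300 (20.4%) detected, against 10.5% of the others. Features seen on a single array were unevenly spread: 465 were detected only on cΔex3 replicate 4 and 330 only on replicate 1, while each of the other 5 arrays had 60 to 106. The other features showed the same arrays in front, with 795 (2.01%) only on replicate 4 and 432 (1.09%) only on replicate 1, against 2.87% and 2.04% of interval features. The array with the most such features was also the one with the high spermatid and epididymis sums given above, and whether these are linked was not tested. On all 4 cΔex3 arrays and no control array, 294 interval features (1.82%) were detected, against 2.45% of the others. The reverse, all 3 control arrays and no cΔex3 array, held for 41 (0.253%), against 0.352% of the others.

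Interval features leaned lower in cΔex3 than the other features on the array. Of them, 10538 (65.1%) in 3142 intervals were well above background on at least 3 arrays and entered limma's moderated test over all 42462 such features, with Benjamini-Hochberg adjustment over all of them and a threshold of 0.05. Of these, 1241 (11.8%) rose and 4022 (38.2%) fell. Over all features tested, 49.7% were called, 18.9% higher and 30.8% lower, so the share of interval features called (49.9%) is near the background and the split between directions is not. The median difference was -0.47 for interval features, -0.11 for the others and -0.21 over all tested. Differences of over 3 on the log2 scale were called for 181 rises and 263 falls, and of over 5 for 16 rises and 39 falls. Among all 42462 features tested these counts were 1991 and 1673, and 502 and 710. Such large differences were thus a smaller share of interval features than of all features, in both directions.

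The direction of the bulk of these calls rests on the scaling between arrays. With no scaling, 3969 interval features rose and 642 fell, since the median difference over all features then became 0.88 and that of interval features 0.62. Relative to all features the interval features were lower: the median of interval features minus that of all was -0.26 at the main scaling. A scaling that takes 1 value off each array shifts all features alike and cannot change this gap. The same -0.26 with no scaling therefore adds nothing. The gap was -0.37 with quantile normalisation. With normexp and quantile normalisation, and with the deposited values, which are nearly the same, it was -0.16. Calls that held in the same direction under all 7 scalings numbered 1014 rises (9.62%, against 16.8% over all features) and 641 falls (6.08%, against 7.22%). By that stricter count, interval features had a smaller share of calls than all features in both directions.

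At the main scaling, interval features had fewer rises and more falls than the others in each quartile of signal. Interval features were dim: 42.4% of those tested lay in the dimmest quartile of all tested features and 5.76% in the brightest, against 19.3% and 31.4% of the others. In the dimmest quartile 11.7% of interval features rose and 31.6% fell, where 20.7% of the others rose and 25.3% fell. In the brightest quartile 5.11% of interval features rose and 51.2% fell, against 15.0% and 33.3% of the others. The median difference of interval features went from -0.43 in the dimmest quartile to -0.77 in the brightest, and that of the others from -0.13 to -0.27. With no scaling these medians were 0.66 and 0.32 for interval features, and 0.95 and 0.81 for the others. Counting only calls that held under all 7 scalings, 4.81%, 5.78%, 8.69% and 9.06% of interval features fell from the dimmest to the brightest quartile, against 5.58%, 6.30%, 7.76% and 9.61% of the others. By that count interval features had the smaller share of falls in all but the third quartile. Rises that held under all 7 scalings were 4.94% to 11.4% of interval features and 14.9% to 25.2% of the others. These shares were not tested against each other.

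**Figure D2:**
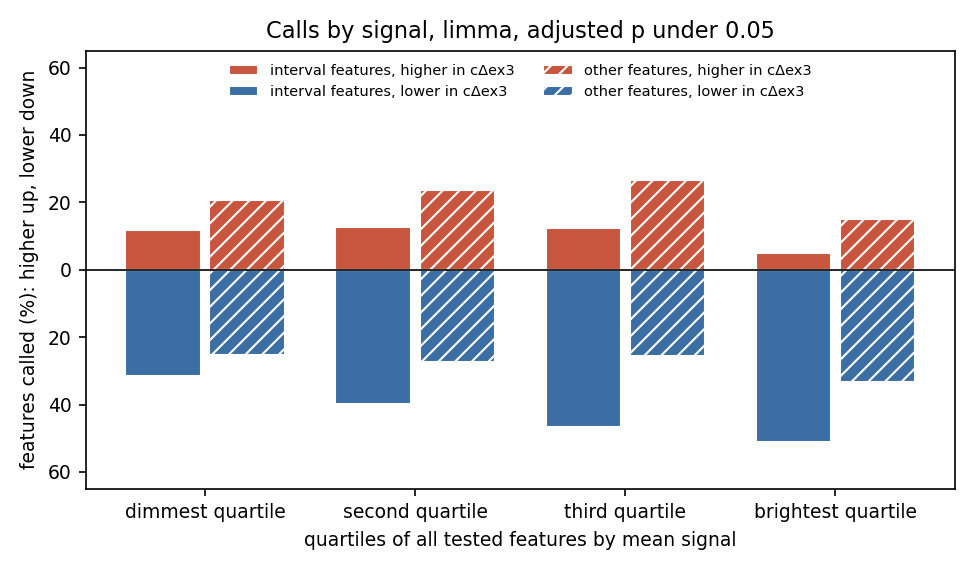
Percent of tested features called higher (upward bars) or lower (downward bars) in cΔex3 by limma at an adjusted p under 0.05, in quartiles of all tested features by mean signal, for interval features (plain) and other features (hatched). In each quartile the interval features have a smaller share of rises and a larger share of falls, up to 51.2% lower in the brightest quartile. The bars use the main scaling, and the order of the falls turns in all but the third quartile for calls held under all 7 scalings.

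By interval length and strand letter the shares called varied as follows, with no test of the differences. Between quartiles of interval length, 10.2% to 15.2% of tested features rose and 31.3% to 42.0% fell. Of F features 10.1% rose and 40.8% fell, and of R features 13.3% and 35.6%. On the autosomes 8.0% (chromosome 14) to 17.0% (chromosome 3) rose. On the X chromosome 75 of 365 tested features (20.5%) rose and 24.7% fell. Of all features tested 18.9% and 30.8% did, and of all interval features tested 11.8% and 38.2%. The share that rose on X is thus near that of all features and above that of interval features. These X features are not spread evenly: 12 of the 75 came from 1 interval, chrX:90997595-91009570, with a median difference of 3.37 over its 16 tested features. A further 7 came from chrX:54627918-54638568 (median 1.31 over 9), and the 75 lay in 32 intervals in all.

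The largest rise lay on chromosome 2 and was read by 4 features. In chr2:136327645-136341251, strand letter F, the brightest feature had levels of -7.65, -7.79 and -7.70 on the control arrays and 3.45, 3.25, 4.03 and 2.11 on the cΔex3 arrays. It was not well above background on any control array and was detected on all 4 cΔex3 arrays. The difference was 10.92 ± 0.42 (SE, n = 3 and 4; limma adjusted p = 7.68e-06). Because the control values are only a bound, the rise is better given as at least 421-fold, the cΔex3 mean over the lowest level at which a feature was detected on the control arrays, or the feature's own value where that was higher. The other features of the interval differed by 9.34 ± 0.49 and 9.13 ± 0.57 (SE, n = 3 and 4), so all 3 rose. The 615-base interval chr2:136340642-136341256, which overlaps it on the same strand letter, has 1 feature, with control levels of -7.89, -7.79 and -7.60 and cΔex3 levels of 1.62, 1.63, 2.26 and 0.26. Its rise was at least 124-fold (9.20 ± 0.44, SE; limma adjusted p = 1.35e-05). In each of these features cΔex3 replicate 4 was the lowest of its group, still far above the control arrays.

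The next intervals fell into those with an even rise and those led by 1 array. In chr19:33049479-33054553, strand letter R, the leading feature had control levels of -7.50, -7.80 and -7.61 and cΔex3 levels of 0.47, -0.27, 0.05 and -1.27. That is a rise of at least 38.2-fold (7.38 ± 0.40, SE, n = 3 and 4; limma adjusted p = 2.07e-05), and the other features of the interval rose by 5.93 and 3.47. The single feature of chr15:60989423-60997290, strand letter F, read -7.77, -7.70 and -7.53 in control and -1.56, -1.91, -2.34 and -3.21 in cΔex3, at least 9.55-fold higher. In chr9:82991830-82999937, strand letter F, levels of -7.86, -6.78 and -7.51 stood against -1.87, -2.03, -0.97 and -3.24, at least 11.2-fold higher. The other F features of that interval and its only R feature rose too, the R feature by 2.34. These 3 intervals show no cΔex3 array standing far from the rest.

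On chromosome 3 some neighbouring intervals rose and others did not. In chr3:30059174-30060808, strand letter R, the leading feature had control levels of -7.96, -7.79 and -6.54 and cΔex3 levels of -2.18, -2.32, -1.63 and -3.06, at least 9.27-fold higher (5.13 ± 0.45, SE, n = 3 and 4; limma adjusted p = 0.000149). The other features of this interval rose by 4.43 and 2.99. All 3 tested features of chr3:30077338-30080281, 16.5 kb away, rose with a median of 4.40, and all 3 of chr3:30100736-30101280, 39.9 kb away, with a median of 3.07. Both features of chr3:30107995-30108595 rose as well, with a median of 1.74. The nearest separate interval, chr3:30064327-30064680 at 3.52 kb, had 1 of 2 features called higher and a median of 0.19. In chr3:30099759-30133959, 3 of 7 features rose and 1 fell. The wide interval chr3:30032959-30079659, which holds the first of these, went both ways, with 2 of its 8 tested features higher and 4 lower. Which of these intervals belong to 1 transcript cannot be told from the files.

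In a further group of rises cΔex3 replicate 4 gave the highest level. In chr19:23064968-23069896, strand letter F, the levels were -4.78, -7.82 and -5.38 in control and -0.32, -1.43, -1.96 and 2.21 in cΔex3. The difference was 5.62 ± 1.12 (SE, n = 3 and 4; limma adjusted p = 0.00533), and all 3 features rose by 5.10 to 5.62. In chr19:23068397-23190256, which overlaps it, 1 of 7 features rose and 1 fell (median -0.07). In chr19:59498190-59531390, strand letter R, all 5 features rose by 3.31 to 5.16, and the leading one read -7.46, -7.75 and -6.60 against -1.90, -3.04, -3.29 and -0.23. The F features of the same interval did not follow: 2 of 5 were tested, and their differences of -0.98 and -0.57 were not called. In chr19:60220577-60238494, strand letter F, 2 of 3 features rose, the leading one from -7.72, -7.79 and -7.70 to -1.84, -4.10, -3.92 and -0.03. The 266-base interval chr11:96175764-96176029, strand letter F, was detected on all control arrays, at -4.95, -4.04 and -3.86, and read 0.87, 0.43, 0.31 and 2.87 in cΔex3. Its difference was 5.40 ± 0.64 (SE, n = 3 and 4; limma adjusted p = 0.000602), with all 3 features higher by 3.56 to 5.40, and 2 of 3 features of chr11:96173788-96174352, 1.41 kb away, rose as well. The intervals about 50 kb away did not follow: chr11:96111499-96126224 had 1 of 6 features higher and 2 lower, and chr11:96112907-96125798 had 1 higher and 1 lower. The call of each leading feature held without cΔex3 replicate 4, the array with the high spermatid and epididymis sums.

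**Figure D3:**
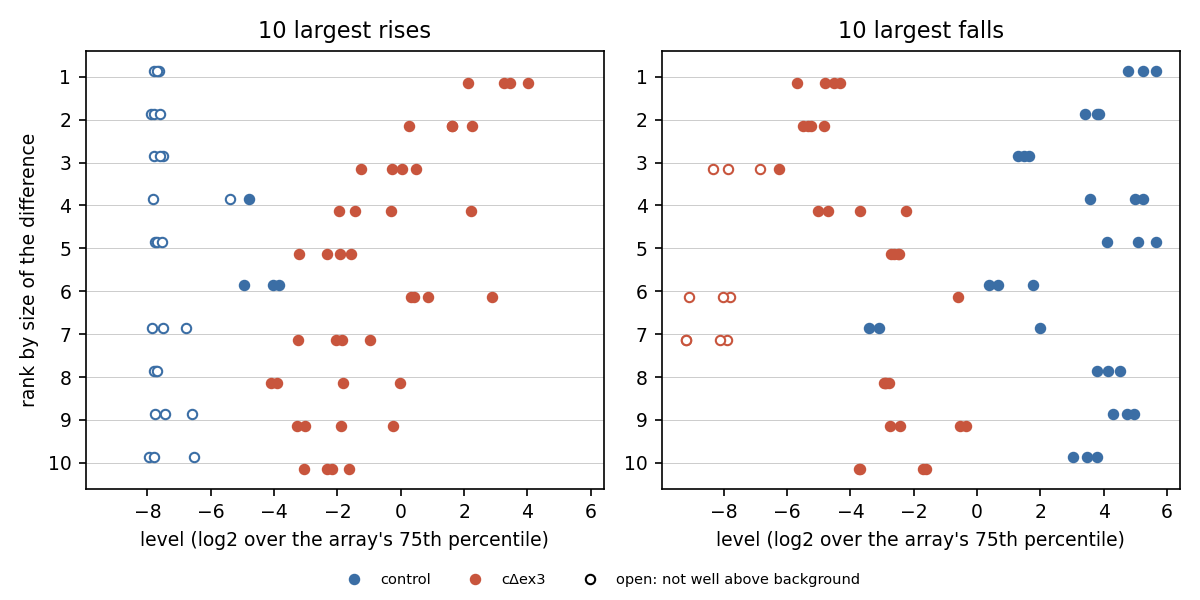
Level of each feature, as log2 over the array's 75th percentile, on the 3 control arrays (blue) and 4 cΔex3 arrays (red), for the 10 largest rises and 10 largest falls, 1 feature for each interval and strand, ranked by size. Open points were not well above background. In 8 of the 10 rises no control array detected the feature, and in the largest fall the control arrays sit between 4.77 and 5.66 and the cΔex3 arrays between -5.67 and -4.33.

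The 10 largest falls were read by features detected on every control array, and 7 of them were detected on every cΔex3 array too. In chr13:28537223-28539860, strand letter R, 1 feature read 5.24, 5.66 and 4.77 in control and -5.67, -4.53, -4.80 and -4.33 in cΔex3, a difference of -10.05 ± 0.37 (SE, n = 3 and 4; limma adjusted p = 7.41e-06). The other tested feature of the same interval and strand fell by only 0.85. The same imbalance was seen in chr8:67542714-67561694, strand letter F. There 1 feature read 3.86, 3.79 and 3.41 against -5.51, -4.84, -5.35 and -5.25 (-8.92 ± 0.22, SE, n = 3 and 4; limma adjusted p = 5.8e-06), while the median over the 4 tested features was -0.91 and the smallest difference -0.51. In chr4:135896689-135918414, strand letter R, 1 feature read 4.52, 4.15 and 3.79 against -2.78, -2.94, -2.91 and -2.87 (-7.03 ± 0.21, SE, n = 3 and 4; limma adjusted p = 5.8e-06), and of the 7 tested features there it was the only one called, with a median of 0.11. In these 3 intervals the groups are far apart in 1 feature only, and the rest of the interval does not share the size of the fall.

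Other falls were shared by most features of their interval. In chr1:71939741-71947891, strand letter F, the leading feature read 1.64, 1.48 and 1.31 in control and -8.35, -6.85, -7.87 and -6.24 in cΔex3, where 1 of 4 arrays detected it (-8.81 ± 0.49, SE, n = 3 and 4; limma adjusted p = 2.38e-05). Its other F features fell by 5.67 and 2.62, and both tested R features fell, by 2.81 and 2.27. All 3 features of chr1:71984564-71985074, 36.7 kb away, fell with a median of -4.25. In chr9:78107225-78118850, strand letter F, the leading feature read 5.24, 3.56 and 4.98 against -4.71, -3.69, -5.03 and -2.24 (-8.51 ± 0.73, SE, n = 3 and 4; limma adjusted p = 0.000137). A further F feature fell by 8.32, and all 5 R features fell, with differences from -5.71 to -2.75. The third F feature differed by -0.71 and was called as lower, but by 0.38 in the opposite direction with no scaling. Its call was lost in 11 of the 20 alternatives, among them the slide row as a block (-0.72) and leaving out control replicate 2 (-0.67), control replicate 3 (-0.66) or cΔex3 replicate 3 (-0.70). In this interval both strand letters moved the same way.

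Chromosome 6 held a pair of overlapping intervals in which every tested feature fell. In chr6:40693617-40720167, all 5 F features fell, with differences from -6.10 to -3.48, and all 4 tested R features, from -5.43 to -1.23. Its leading feature read 3.48, 3.78 and 3.02 in control and -1.70, -1.60, -3.72 and -3.69 in cΔex3 (-6.10 ± 0.62, SE, n = 3 and 4; limma adjusted p = 0.000291). In chr6:40699474-40719122, which lies inside it, both F features fell, with differences of -6.18 and -6.04. On the leading feature of each interval cΔex3 replicates 1 and 2 were about 2 units above replicates 3 and 4. This split within the group is small beside the gap to the control arrays. It was smaller in another F feature of the wider interval, at -4.79 and -4.77 against -5.13 and -5.28. In chr17:32044823-32045974, strand letter R, the 3 features fell by nearly the same amount, 4.82, 4.81 and 4.77. One of them read 2.63, 3.01 and 2.06 in control and -2.41, -1.18, -3.28 and -2.15 in cΔex3. In chr10:87541696-87547421, strand letter R, the leading feature read 4.12, 5.65 and 5.10 against -2.70, -2.46, -2.61 and -2.49 (-7.52 ± 0.35, SE, n = 3 and 4; limma adjusted p = 1.19e-05), and 2 of the 4 tested R features fell. These falls go with the fall of the hepatocyte genes in the same arrays, and the link was not tested.

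Among the named falls, 2 rested on unequal arrays. In chr16:86770170-86874921, strand letter R, the leading feature read 0.67, 1.76 and 0.39 in control and -9.11, -7.79 and -8.03 on cΔex3 replicates 1 to 3, but -0.60 on replicate 4, close to the control level. All 3 features of this interval fell by 5.46 to 7.32 with replicate 4 included (limma adjusted p = 0.0167 for the leading one). The leading feature no longer passed the threshold without control replicate 2 (-6.92) or over arrays of 1 mouse only (-6.07). In chr10:116814196-116920696, strand letter R, control replicate 2 read 1.99 and replicates 1 and 3 read -3.11 and -3.40, while no cΔex3 array detected the feature. Its level was at least 28.1-fold lower in cΔex3 (limma adjusted p = 0.00335), but another feature of the same strand letter was higher by 2.65. With normexp background correction and quantile normalisation its difference was -2.96 and did not pass the threshold.

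Of the 8 features with the highest mean signal, in 8 intervals, 5 fell by 1.15 to 1.59 and 3 were not called. In chr12:73838608-73862621, strand letter F, levels of 8.49, 8.64 and 8.32 stood against 6.86, 7.49, 7.16 and 7.01 (-1.35 ± 0.21, SE, n = 3 and 4; limma adjusted p = 0.00177). In chr16:39984031-40081556, strand letter R, they were 8.44, 8.87 and 8.07 against 6.92, 7.07, 6.75 and 6.75 (-1.59 ± 0.23). The leading features of chr17:17481706-17482457, chrX:138967807-138968413 and chr14:78924115-78938125 fell by 1.20, 1.15 and 1.26. All 5 of these falls are near the shift of 1.09 in the 75th percentile: with no scaling the differences were -0.26, -0.50, -0.11, -0.06 and -0.17, and none passed the threshold. The falls of chr17:17481706-17482457, chrX:138967807-138968413 and chr14:78924115-78938125 did not pass with quantile normalisation either (-0.28, -0.24 and -0.35). Nor did they with normexp and quantile normalisation (-0.23, -0.13 and -0.29) or with the deposited values. That of chr12:73838608-73862621 did not pass with quantile normalisation (-0.37). The fall on chrX:138967807-138968413 also did not pass without control replicate 1 (-1.10) or replicate 2 (-1.13). The other leading features, in chr11:22681800-22707775, chr7:108209996-108216032 and chr19:5801802-5802597, differed by -0.40, -0.11 and 0.29 and were not called. With no scaling these became 0.69, 0.98 and 1.38 and were called higher. Quantile normalisation gave 0.51, 0.8 and 1.19, also called higher. All 3 were called higher with normexp and quantile normalisation and with the deposited values too.

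Among the 200 features of highest mean signal, the 5 with the smallest differences were near 0 by choice, so their differences are a description. In chr16:43623581-43642715 all 20 features, 10 of each strand letter, were detected on all 7 arrays and none was called, with differences from -0.30 to 0.28. One of its F features read 3.86, 3.89 and 3.93 in control and 4.17, 3.01, 4.06 and 4.24 in cΔex3, where replicate 2 is low. The 3 features of chr16:43623175-43624069, which overlaps it, differed by 0.01 to 0.08. In chr13:58474388-58487288 none of the 8 features was called (-0.43 to 0.10), and in chr7:128341797-128414692 none of the 5 R features was (-0.05 to 0.20). In chr5:31856417-31916414 the steady feature (-0.02) sat beside others of the same strand letter at -1.63 and 1.92, both called. With no scaling the 5 steady features were higher by 1.04 to 1.09, near the shift of the 75th percentile.

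Features of 1 interval and strand letter often disagreed. There were 2852 intervals with their strand letter that had at least 2 tested features. In 131 all tested features rose, in 427 all fell, in 634 none was called, and in 210 some rose and others fell. The share of all features called higher is 18.9% and lower 30.8%. These are shares of single features and give no expected count of whole intervals. The median range of differences within an interval and strand letter was 0.99. With at least 3 tested features there were 1818, of which 95 rose throughout, 166 fell throughout and 189 held calls both ways, and the median range was 1.22. A range under 0.5 was seen in 349 of the 1818 (19.2%), a range over 3 in 209 (11.5%) and over 5 in 34. The count that rose throughout was 82 without control replicate 1 and 87 without control replicate 2, and the count that fell throughout was 236 and 221. With no scaling 484 rose throughout and 29 fell throughout.

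**Figure D4:**
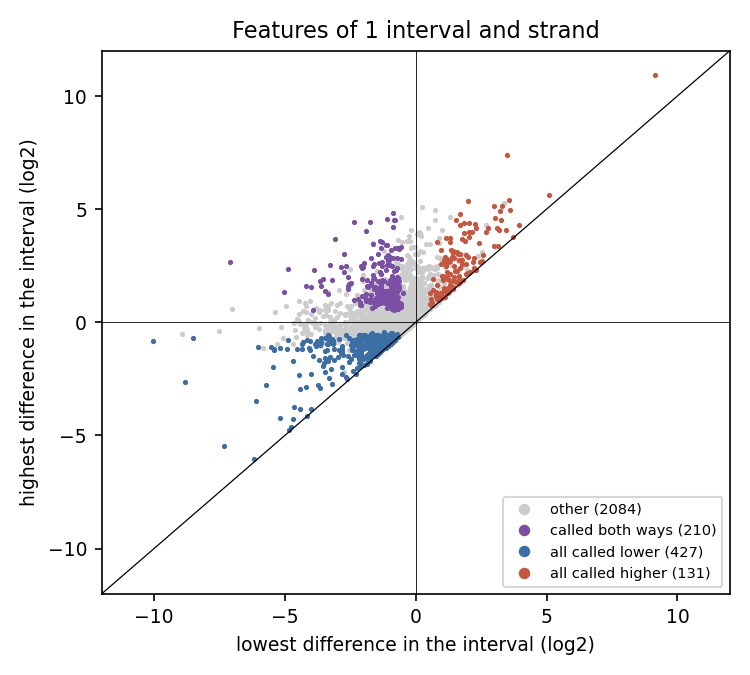
Lowest (x) against highest (y) log2 difference, cΔex3 minus control, among the tested features of each of 2852 intervals and strand letters with at least 2 tested features. Points on the diagonal have features that moved alike. The 131 that rose throughout are red, the 427 that fell throughout blue and the 210 with calls both ways purple.

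Counted by interval, 346 of 3142 tested intervals had calls in the higher direction only, 1659 in the lower direction only, 279 in both, and 858 had none. Of the intervals with calls 1 way only, 17.3% were higher. These counts use the main scaling, at which 18.9% of all features tested were called higher and 30.8% lower. With no scaling 3969 interval features rose and 642 fell, and the intervals were not recounted.

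Signal on both strands of an interval was common. Of the 1067 intervals with both strand letters, 725 had a feature of each letter detected on all 7 arrays, 286 had features of 1 letter only, and 56 had neither. Counting detection on at least 3 arrays, 901 had both and 144 had 1. In the 901 intervals with tested features of both letters, the median difference was below 0 for both in 550, above 0 for both in 81 and of opposite sign in 270. The median gap between the medians of the strand letters was 0.61, and it was over 1 in 293 intervals and over 3 in 36. A called rise on 1 strand letter together with a called fall on the other was seen in 194 of the 901. These signs and calls use the main scaling. There the median difference of all features tested was -0.21, with 18.9% called higher and 30.8% lower.

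**Figure D5:**
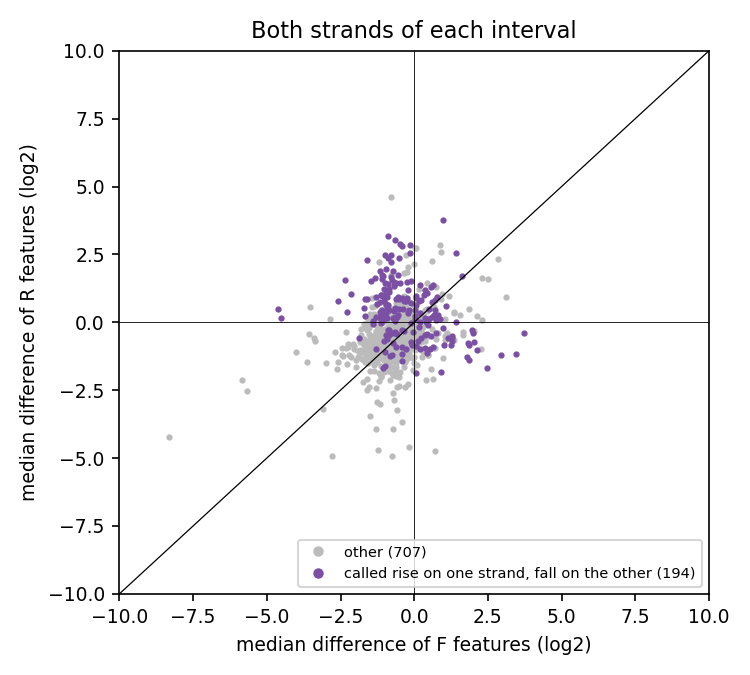
Median log2 difference, cΔex3 minus control, of the tested F features (x) against that of the tested R features (y), for 901 intervals with tested features of both strand letters. The 194 intervals with a called rise on 1 letter and a called fall on the other are purple, and 270 intervals lie in the quadrants of opposite sign.

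In the 5 intervals with the widest opposite calls the split did not always follow the strand letter. In chr4:135896689-135918414 the R feature that fell by 7.03 lies opposite an F feature that rose from -4.52, -4.90 and -4.94 to -2.77, -4.39, -3.71 and -2.85 (1.35 ± 0.41, SE, n = 3 and 4; limma adjusted p = 0.029). The call of that rise was lost without any 1 of the control arrays (1.28 to 1.49) and without cΔex3 replicate 1 (1.14). In chr1:42689799-42749799 an R feature rose from -4.61, -5.03 and -4.19 to -0.76, -0.43, -1.13 and 3.69, with cΔex3 replicate 4 far above the rest. An F feature there fell by 2.31, and by 1.22 with no scaling, which was not called. In chr6:112552041-112560067 an F feature not detected in control rose at least 6.66-fold, and an R feature fell from -1.83, -1.99 and -2.20 to -5.15, -5.50, -5.58 and -5.67 (-3.47 ± 0.20, SE, n = 3 and 4; limma adjusted p = 2.47e-05). That fall held under all 7 scalings, and another R feature of the interval was called higher by 1.37.

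In chrX:90997595-91009570, the interval with the most rises on X, 9 of 10 R features rose, the leading one from -5.77, -5.43 and -5.10 to -0.53, -1.45, -0.77 and 0.31 (4.82 ± 0.40, SE, n = 3 and 4; limma adjusted p = 0.000128). Of its 6 tested F features 3 rose and 2 fell. The fall with the largest size there, -1.76, was -0.67 with no scaling and was then not called. Its call was lost in 6 of the 20 alternatives. Among them were normexp and quantile normalisation (-0.54), the deposited values (-0.56) and arrays of 1 mouse only (-1.43). Both features of chrX:91000651-91005855, which lies inside chrX:90997595-91009570, rose with a median of 3.63. In chr14:33923944-34003394 an F feature fell from -1.90, -2.74 and -3.46 to below detection on all 4 cΔex3 arrays, at least 12.3-fold lower (limma adjusted p = 4.76e-05). An R feature there rose by 1.25 ± 0.36 (SE, n = 3 and 4), a call lost without control replicate 1 (1.16), control replicate 2 (1.09) or cΔex3 replicate 3 (1.17), and with the slide row as a block (1.31). Of the 6 tested R features of that interval 2 rose and 2 fell, with differences from -1.42 to 1.25.

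The same probe series also carries 57 features under the names of 12 known noncoding transcripts. All 5 features named NEAT1, the RNA at the core of paraspeckles, rose by 2.67 to 2.93. All 3 named NEAT2, an older name for the nuclear speckle RNA Malat1, rose by 1.76 to 2.09. Of 5 features named H19, an imprinted RNA known for its high level in fetal tissues, 4 fell, with differences from -3.43 to -2.15 over all 5. With no scaling these were -2.35 to -1.06 and none was called. None of 5 features named TUG1 was called (0.29 to 0.51), though all 5 were called higher with no scaling (1.37 to 1.60), and none of 5 named TSIX was detected on any array. In all, 36 of the 57 were tested, 11 rose and 9 fell, of which 11 and 1 held under all 7 scalings. Over all features tested 18.9% were called higher and 30.8% lower, and 16.8% and 7.22% under all 7 scalings. Of 4 tested features named KCNQ1ot1, 1 rose and 1 fell (-1.98 to 1.23), both under all 7 scalings. The 4 named BRN1-A had the largest median, 4.16, and 2 of them were called higher.

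A list of 69 annotated long noncoding RNAs was read through the features that carry a gene. Of these 40 were found and 33 tested, 8 rose and 3 fell, and the median difference was 0.11, beside -0.21 over all features tested. The shares called over all features tested were 18.9% higher and 30.8% lower. Peg13, an imprinted noncoding RNA, rose by 2.53 ± 0.27 (SE, n = 3 and 4; limma adjusted p = 0.000358). Neat1 rose by 2.98 ± 0.47 and Malat1 by 2.12 ± 0.30 (limma adjusted p = 0.00197 and 0.00127). The features named NEAT1 and NEAT2 above, which carry no interval name, rose too. Which interval features, if any, read these transcripts was not analysed. Snhg18, a small nucleolar RNA host gene, rose by 2.65 ± 0.41 (limma adjusted p = 0.00195). Wt1os, transcribed opposite Wt1, and Foxd2os, opposite Foxd2, were not detected on any control array and were at least 1.34-fold and 2.81-fold higher (limma adjusted p = 0.0035 and 0.00521). The list's largest fall was that of Dleu2, the host transcript of miR-15a and miR-16-1, which fell by 3.61 ± 0.34 (limma adjusted p = 0.000225). Crnde fell by 0.73 at its brighter feature, which differed by 0.35 with no scaling and was then not called, while its other feature differed by 1.99. All 8 rises held under all 7 scalings, and of the falls that of Dleu2 did. The count of falls was 1 without control replicate 1 and 5 without cΔex3 replicate 4.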

How the data were processed

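Each array was a 1-colour Agilent mouse expression array, read as 1 scan of 1 slide with Feature Extraction 10.7.1.1 per the file headers. The deposited intensity taken from each file was the processed signal, from which the scanner software had already subtracted background, per the file headers. The deposited flags for well above background and outlier spots were used as given. The authors' log2 values of the same arrays were deposited too and served as an alternative: per column their medians were 7.407 to 7.413 and they correlated at 0.9999 with the normexp and quantile values.

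Spots flagged as outliers were left out, spots of 1 feature averaged, and log2 intensity scaled by each array's 75th percentile. Of the interval features, 21 had a missing value on some array and were fitted on the rest. Features flagged as detected on 3 or more of the 7 arrays were tested with limma 3.58.1 (R 4.3.3), group as the only term, with Benjamini-Hochberg adjustment over 42462 features and a threshold of 0.05. The 7 scalings were this one, quantile, normexp (offset 50) with quantile, the deposited log2 values, the 75th percentile over features detected on all arrays or over other features, and none. Single values over arrays were compared with exact permutation tests (scipy 1.17.1). The array number limits the precision. P-values measure the spread between arrays of separate mice or pools.

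Named intervals, none on chromosome 18, are the 10 largest rises and falls without overlap of groups, the 5 largest shared rises and falls over 3 or more features, the 8 of highest signal, the 5 widest opposite calls and the 5 steadiest of the 200 of highest signal. Of the noncoding RNA list the 8 with the smallest p are named. Other named intervals, and the probe series' 12 names, were chosen after their values were seen. The members and lists were chosen with earlier results of these data known.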

Additional observations from a re-analysis of the deposited data

Results flagged for a closer look

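In each group of 4 cΔex3 arrays, the gap of the highest or lowest array to its nearest neighbour was divided by the group's range and compared with Dixon's critical value for 4 values. Of 104 such groups (named features, listed noncoding RNAs and per-array summaries of the interval features), 7 passed, and chance passes about 1 in 20. In chr16:86770170-86874921, strand letter R, 2 features stood apart on cΔex3 replicate 4, at -0.60 against -9.11 to -7.79 and at -0.52 against -7.19 to -6.33. In chr1:42689799-42749799, strand letter R, replicate 4 read 3.69 against -1.13 to -0.43. In chrX:90997595-91009570, strand letter F, replicate 4 read -6.66 against -6.04 to -5.96. Pvt1 read 1.12 on replicate 4 against -0.73 to -0.67. On replicate 2, the leading feature of chr11:22681800-22707775 read 7.71 against 7.04 to 7.15, and that of chr16:43623581-43642715 read 3.01 against 4.06 to 4.24.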

How the results depend on the processing

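The counts of interval features that rose and fell (1241 and 4022) stayed within 1.5 times of these values in 17 and 18 of 20 alternatives. They were 3969 and 642 with no scaling, and 59 and 202 within the lower slide row, which has 1 control array. Rises numbered 737 among features detected on all 7 arrays. Leaving out 1 array gave 852 to 1430 rises and 2923 to 4151 falls.

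Intervals and strand letters that rose throughout (131) numbered 484 with no scaling, 83 among features detected on all 7 arrays, 4 within the lower row, and 82 to 151 without 1 array. Those that fell throughout (427) numbered 279 with normexp and quantile normalisation, 280 with the deposited values, 282 with the percentile over detected features, 29 with no scaling, 164 with no filter on dim features, 211 over arrays of 1 mouse, 277 with the slide row as a block, 235 and 7 within the upper and lower rows, 166 with at least 3 features, and 221 to 490 without 1 array. This count depends most on the choices made.

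The noncoding RNA list, with 8 rises and 3 falls, gave 22 and 1 with no scaling, 0 and 1 within the lower row, and 6 to 11 and 1 to 5 without 1 array. The median difference of interval features (-0.47) was -0.19 with normexp and quantile normalisation, -0.20 with the deposited values, -0.32 with the percentile over detected features, 0.62 with no scaling, and -0.52 to -0.45 without 1 array. Detection differed by 3.34 to 10.1 points without 1 array. Intervals detected on 1 strand letter only numbered 286 on all 7 arrays and 144 on at least 3.

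With the replicate number as a replicate block, 1210 interval features rose and 3791 fell, 126 intervals and strand letters rose throughout and 382 fell throughout, and the noncoding RNA list had 8 rises and 4 falls. No named feature gained or lost its call, and none of these counts moved by over 1.5 times. Deviations of same-numbered arrays correlated at 8.77e-05, 0.0174 and 0.0339, so no pairing by number was seen. With so few arrays these values cannot exclude a shared origin of same-numbered samples. No control array is numbered 4, so cΔex3 replicate 4 adds nothing to the difference in the block fit. Of 59 called named features, 44 kept their call in each alternative in which they were fitted, apart from the lower row, where 40 lost it. Only 37 of the 67 named features were fitted where detection on all 7 arrays was required. Of the called features 6 lost the call without some 1 array. The called -0.71 of a feature in chr9:78107225-78118850 became 0.38 with no scaling. Differences near background are bounds, and no spot was saturated.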
